A study of Mus musculus with 4 samples.

Results

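The laminins, their partners in the basement membrane and the receptors that bind them were followed in lung RNA of C57BL/6 mice taken on embryonic day 14.5. The 37 genes were chosen by name from 52636 genes in the deposited table, and each of the 37 symbols matched 1 Ensembl identifier of the GENCODE M21 annotation. They comprise 5 laminin alpha chains, 5 beta and gamma chains, 4 linkers and proteoglycans, 3 genes of the Fras/Frem complex, 3 other matrix ligands, 2 further cell attachment genes, and 9 alpha and 6 beta subunits of the integrins. RNA sequencing libraries of total lung came from 2 groups with 2 libraries each. The Control group is wild type, and the Yap CKO group carries a Yap conditional knockout (CKO) that the series title calls epithelial-specific. Yap, the product of Yap1, is a transcriptional coactivator held in check by the Hippo kinases. No Cre driver is named in the sources used here, and the other cells of a whole lung are not targeted by an epithelial knockout. The labels do not tie replicates to separate embryos or litters. The p-values therefore rest on a spread between libraries that may be technical in the Yap CKO group. The controls differ in sex-linked genes, as given below, so they are not repeats of the same RNA.

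A basement membrane is the thin sheet of matrix on which epithelial and endothelial cells sit and which also wraps muscle cells. Laminins are trimers of 1 alpha, 1 beta and 1 gamma chain that polymerize into a network, and nidogens, perlecan and agrin tie this network to collagen IV and to cells. Integrins, each a pair of an alpha and a beta subunit, and dystroglycan hold cells to it. In the branching lung the sheet around the epithelial tips is remodelled as buds grow and split.

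In the libraries labelled Yap CKO 4 of the 37 genes fell and 1 rose, where 1.15% of all genes tested fell and 1.19% rose. The falls were in Lamb3, a beta chain of epithelial laminin, to 0.332 of its control level, in Lama5, the alpha chain of many epithelial basement membranes, to 0.541, in Itga3, a laminin-binding integrin subunit, to 0.637, and in Dag1, which encodes dystroglycan, to 0.64. The rise was in Itga2, an integrin subunit that binds collagen, to 1.544 times control. The other 32 genes did not pass. Below 0 lay 29 of the 37 log2 differences, with a median of -0.31, against 50.6% of all genes tested and a median of -0.005. With the libraries rescaled to equal totals 27 lay below 0 and the median was -0.24, against 0.057 over all genes.

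All 37 genes had a mean of at least 10 normalized counts and entered the test. Values were log2(normalized count + 1), fitted with limma over 19472 genes, and a gene passed at a Benjamini-Hochberg adjusted p under 0.05. Log2 changes are Yap CKO minus control, with the standard error (SE) of the fit. In this test 454 of the 19472 genes passed, which is 2.33% of them, against 5 of the 37 (13.5%). The 37 genes were chosen with earlier results of these data known, so this difference in shares is not an independent result. An unadjusted p under 0.05 was reached by 17 of the 37 on the lower side, where the share of all genes is 9.52%, and by 1 on the higher side, where it is 9.34%. Both control values lay above both Yap CKO values for 23 genes and below them for 3, against 25.6% and 25.2% of all genes tested. With settings varied or 1 library left out, the log2 change of Itga2 ran from 0.60 to 0.69 and that of Dag1 from -0.74 to -0.55. For Lama5 it ran from -1.11 to -0.67, for Itga3 from -0.77 to -0.53 and for Lamb3 from -1.90 to -1.29. The number of calls among the 37 changed with the library left out. It was 12 without control 1, 18 without control 2, and 0 without either Yap CKO 1 or Yap CKO 2, where 11 and 15 genes had an unadjusted p under 0.05 in limma. Over all 19472 genes the calls moved too, to 2459 and 2458 when control 1 or 2 was left out and to 2 and 7 when the first or second Yap CKO library was, and in the latter pair of settings 1705 and 1716 of all genes had an unadjusted p under 0.05. Among the 37 the count was also 0 without the filter on low values and without the intensity trend, 5 with edgeR and 13 with DESeq2.

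Depth ran from 17756301 to 21333878 reads counted to genes. Yap1 itself (mm10 chromosome 9, 7931999 to 8004596) stood at 5686 and 3467 normalized counts in the controls and at 3209 and 4483 in Yap CKO, so the groups overlapped and the level of the targeted gene does not check the labels. Lung identity was present in every library, with no epithelial or lung mesenchyme marker at 0. The sum of 10 heart muscle markers was 1708 and 44068 in controls 1 and 2, and 9972 and 1811 in the corresponding Yap CKO libraries. The Y-linked gene Ddx3y was at 1726 in control 1 and from 5.77 to 16.4 in the other libraries. Xist, the RNA made from the silenced X chromosome of females, was at 42.6 in control 1 and 46726 in control 2. In Yap CKO 1 and 2 it was at 42729 and 50045. By these genes control 1 has the male pattern and the other libraries the female one, so sex is not balanced between the groups. The part of sex in the results was not tested. The 11 epithelial markers summed to 20696 and 19016 in the controls and to 16675 and 17572 in Yap CKO, with a median log2 difference of -0.17. Past the test were 0 of 11, while 4 were lower and 1 (Cldn7) higher at an unadjusted p under 0.05 in limma. The 10 smooth muscle markers all had negative differences, with a median of -1.35 and 5 falls, and summed to 23037 and 25511 in the controls and to 9554 and 13203 in Yap CKO. Of all genes tested 1.15% fell and 1.19% rose, and at an unadjusted p under 0.05 in limma 9.52% were lower and 9.34% higher. Every one of 4 liver and 5 gut secretory markers rose, the liver sum from 25.2 and 59.6 to 1615 and 892. The part of these shifts in the results was not tested. The 10 lung mesenchyme markers summed to 112672 and 125607 in the controls and to 104094.0 and 94518 in Yap CKO, with 1 fall (Mfap4), 4 lower and 2 higher at an unadjusted p under 0.05 and a median of -0.20. The 5 mesothelial markers, of which Krt19 is also among the epithelial ones, all had negative differences, with a median of -0.30. None passed the test in limma, and 2 (Krt19 and Upk3b) had an unadjusted p under 0.05. The sums were 3624 and 4948 in the controls against 3515 and 2797 in Yap CKO. The parts of these in the results were not tested either. The 8 endothelial markers had a median of -0.001, with 0 of 8 past the test in limma and 0 at an unadjusted p under 0.05. In whole organs fewer cells of a type and less RNA per cell cannot be told apart.

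**Figure D1:**
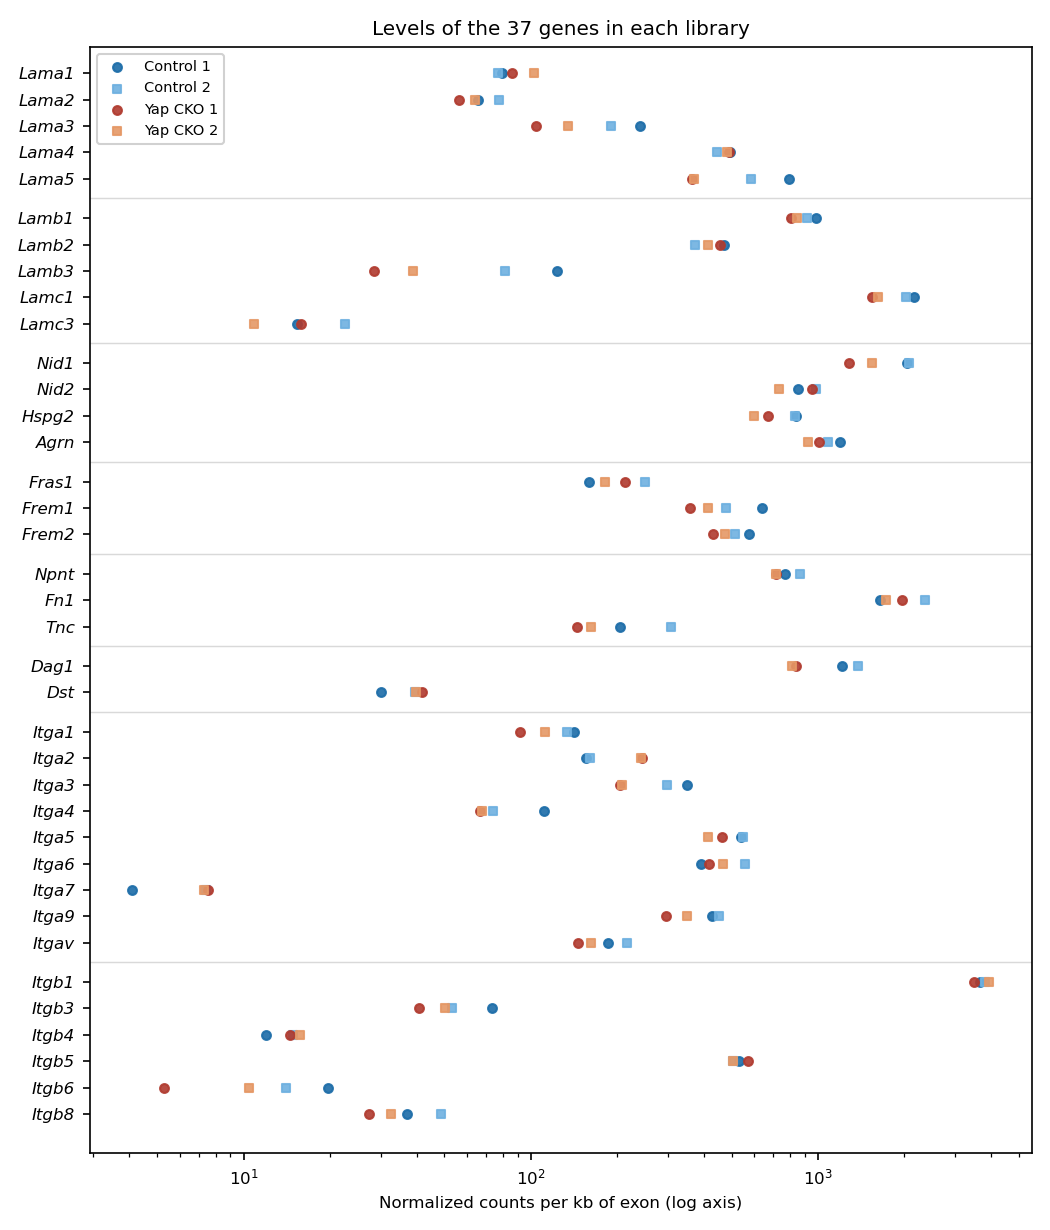
Normalized counts per kb of exon (horizontal log axis) of the 37 genes in role order, with 1 point per library and grey lines between roles. Itgb1 is the highest at a control mean of 3754. The groups lie apart for 23 genes lower and 3 higher in Yap CKO, against 25.6% and 25.2% of all genes tested. Among them are Lamb3, Lama5, Dag1, Itga3 and Itga2.

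Levels among the 37 genes spanned a wide range. Per kb of exon, which allows genes to be compared, the integrin subunit gene Itgb1 was highest in control at 3754 normalized counts per kb, followed by Lamc1 (2093), Nid1 (2062) and fibronectin, Fn1 (1999). The lowest were Itga7 (5.7), Itgb4 (13.4), Itgb6 (16.9) and Lamc3 (18.9). Itgb1 is the shared beta partner of most of the alpha subunits listed here, while Itgb4 builds hemidesmosomes. Exon length is the union of annotated exons, so the level of a gene with many long isoforms, such as Dst, is understated.

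The sequences upstream of a listed start site of each of the 5 genes that passed are shown because these genes moved. Each is a run of 120 bases read 5′ to 3′ on the gene's strand from RefSeq (GRCm38.p6), the nearest to the outermost start site listed there that touches no annotated exon (87 bases short of it for Itga3). Capitals mark GC boxes (GGGCGG or CCGCCC), the letters bound by Sp factors, a motif picked after the sequences were seen. No TEAD motif lies in these runs. The Lamb3 run lies inside the gene as annotated in GENCODE M21, which starts at 193207699.
Lama5, chr2:180225860-180225979, minus strand: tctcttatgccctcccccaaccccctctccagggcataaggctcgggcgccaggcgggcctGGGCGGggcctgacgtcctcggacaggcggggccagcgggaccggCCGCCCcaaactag
Lamb3, chr1:193301873-193301992, plus strand: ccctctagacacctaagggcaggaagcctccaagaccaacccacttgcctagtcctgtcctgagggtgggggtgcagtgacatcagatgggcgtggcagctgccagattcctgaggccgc
Dag1, chr9:108263959-108264078, minus strand: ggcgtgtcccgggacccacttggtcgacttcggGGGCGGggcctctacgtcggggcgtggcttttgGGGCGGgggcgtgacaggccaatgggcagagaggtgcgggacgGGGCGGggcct
Itga3, chr11:95076802-95076921, minus strand: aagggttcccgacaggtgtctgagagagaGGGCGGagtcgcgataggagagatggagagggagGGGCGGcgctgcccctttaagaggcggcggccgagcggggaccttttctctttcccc
Itga2, chr13:114932101-114932220, minus strand: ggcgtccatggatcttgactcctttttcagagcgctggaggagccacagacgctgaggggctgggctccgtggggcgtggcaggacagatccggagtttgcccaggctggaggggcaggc
GC boxes lie in these runs for Lama5 (2), Dag1 (3) and Itga3 (2) and not for Lamb3 or Itga2. The letters CATTCC or GGAATG, the core bound by the TEAD factors through which Yap acts, were also searched on both strands in windows of 250 bases before to 50 after each start site, where RefSeq held 34 windows for 25 of the 37 genes. They were found in 4 of the 34 windows (11.8%), against 14.7% of 32851 windows over all genes. GC boxes were found in 21 of the 34 (61.8%), against 35.7% of all. The 4 TEAD matches are shown next with the motif in capitals.
Lamb3, chr1:193302067-193302090, plus strand: gggaccccaCATTCCcagggagct
Nid1, chr13:13437428-13437451, plus strand: gttggatccGGAATGctgggaacc
Frem2, chr3:53657541-53657564, minus strand: gcgcccctcCATTCCaaccaacct
Itgb1, chr8:128685638-128685661, plus strand: cggcgcggaGGAATGcgtttccgg
The match lay 167 bases upstream of a start site for Lamb3, 165 for Nid1 and 7 for Itgb1, and farther upstream for Frem2. The stretches printed for Lamb3 and Itgb1 overlap annotated exons, and the Itgb1 motif itself lies before the annotated start of Itgb1 at 128685654. A match is a description of letters, and binding was not measured here.

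Of the 10 laminin chains 2 fell and 8 did not pass, where 1.15% of all genes tested fell. Lama5 (ENSMUSG00000015647, mm10 chromosome 2, 180176373 to 180225859, minus strand) measured 9038 and 6649 normalized counts in controls 1 and 2 and 4159 and 4224 in Yap CKO 1 and 2. The groups did not overlap, and the controls differed from each other far more than the Yap CKO libraries did. Its mean went from 7844 ± 1689 to 4192 ± 46.2 (SD, n = 2), a log2 change of -0.89 ± 0.15 SE with an adjusted p of 0.0403 in limma. Under equal totals the adjusted p of Lama5 no longer passed.

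Lamb3 (ENSMUSG00000026639, chromosome 1, 193207699 to 193343878, plus strand) measured 819 and 537 in control and 187 and 256 in Yap CKO. Both Yap CKO values lay far below both controls. The log2 change of Lamb3 was -1.59 ± 0.24 SE (adjusted p = 0.0302, limma). Lama3, the alpha chain that pairs with Lamb3 in the laminin anchoring epithelia, did not pass. Its values were 2584 and 2044 in control and 1123 and 1449 in Yap CKO, a log2 difference of -0.85 (adjusted p = 0.0568, limma). Its groups did not overlap either.

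The other laminin chains did not pass. Lamc1, the gamma chain of most laminins, stood at 17921 and 16707 in control and 12789.9 and 13385 in Yap CKO (log2 difference -0.40, adjusted p = 0.103, limma). Lamb1, its usual beta partner, stood at 9760.3 and 9050.0 in control and 7970.3 and 8372 in Yap CKO (-0.20, adjusted p = 0.321, limma). Neither pair of groups overlapped, although neither gene passed. The controls were the higher group, as for 25.6% of all genes tested. Lama4, an alpha chain of vessels and mesenchyme, was at 5978 and 5387 in control and 5920.5 and 5803 in Yap CKO, and Lamb2 at 2873 and 2269.8 against 2771 and 2528. Their groups overlapped. The 95% confidence interval of the log2 difference ran from -0.18 to 0.28 for Lama4 and from -0.27 to 0.37 for Lamb2. Lama1, an alpha chain of early embryonic epithelia, had its lowest values in control (767 and 743, against 834 and 989.9) without passing (0.27, adjusted p = 0.294, limma). Lama2, the alpha chain of muscle, and Lamc3 did not pass (-0.25 and -0.49).

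The makeup of the alpha chains was compared within each library, as the share of each gene in the summed counts per kb of the 5 alpha chain genes. Lama5 made up 47.4% and 42.5% of the sum in the controls and 33.1% and 32.2% in Yap CKO. Lama4 made up 29.6% and 32.5% in the controls and 44.5% and 41.7% in Yap CKO. Lama5 was thus the first chain in both controls and Lama4 in both Yap CKO libraries. The share of Lama3 was 14.4% and 13.8% against 9.48% and 11.7%, and that of Lama1 4.74% and 5.58% against 7.81% and 8.87%. The sum itself was 1674 and 1375 counts per kb in control and 1103 and 1153 in Yap CKO. Among the beta chains Lamb3 made up 7.84% and 5.94% in control and 2.2% and 2.99% in Yap CKO, Lamb1 between 62.3% and 66.8% in all libraries, and Lamb2 29.9% and 27.3% against 35.4% and 32.0%. An exact permutation test of 2 against 2 libraries cannot give a two-sided p below 0.333, which is its value for the shares of Lama5, Lama4, Lama3, Lama1, Lamb3 and Lamb2. Shares of a whole depend on each other, and RNA shares do not give the makeup of secreted trimers.

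**Figure D2:**
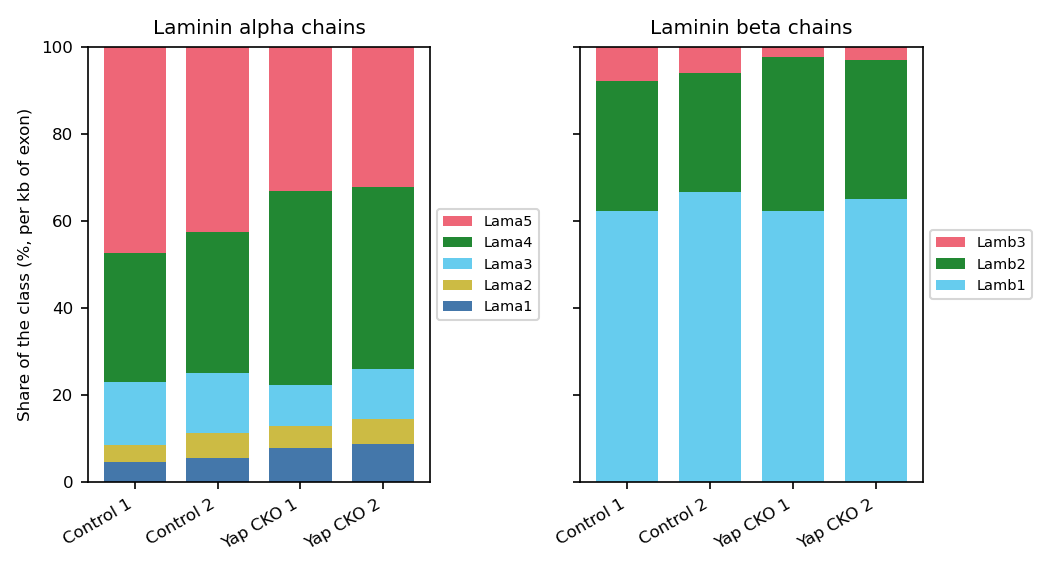
Share (%) of each laminin alpha chain gene (left) and beta chain gene (right) in the summed normalized counts per kb of exon of its class, 1 bar per library. The Lama5 segment is 47.4% and 42.5% high in the controls and 33.1% and 32.2% in Yap CKO, where the Lama4 segment is the taller one.

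Of the 4 linker and proteoglycan genes none passed in limma, 2 had an unadjusted p under 0.05, and none passed with edgeR. With DESeq2 2 of the 4 passed, Nid1 and Hspg2. All 4 log2 differences were negative, with a median of -0.32. Nid1 encodes nidogen, the bridge between laminin and collagen IV. It was measured at 14174 and 14453 in control and 8911 and 10687 in Yap CKO (-0.55, adjusted p = 0.0746, limma). Its paralog Nid2 overlapped between groups, at 4417 and 5085 against 4944 and 3777. Hspg2, which encodes perlecan, was at 12001 and 11924 against 9578 and 8564 (-0.40, adjusted p = 0.105, limma). Agrn, which encodes agrin, a proteoglycan that binds laminin and dystroglycan, was at 11073 and 10072 against 9388 and 8547 (-0.24, adjusted p = 0.288, limma). For Nid1, Hspg2 and Agrn both controls were above both Yap CKO libraries, as for 25.6% of all genes tested.

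The Fras/Frem proteins form a complex on the stromal side of epithelial basement membranes. Frem1 stood at 8939 and 6682 in control and 5009 and 5789 in Yap CKO (-0.52, adjusted p = 0.149, limma), and Frem2 at 7613 and 6833 against 5719.5 and 6305 (-0.26, adjusted p = 0.244, limma). Both were separated between groups without passing, with the controls higher, as were 25.6% of all genes tested. Fras1 overlapped, at 2823 and 4411 against 3759 and 3207. Among the other ligands tenascin C, Tnc, a matrix protein of growing and remodelling tissue, was at 1586 and 2401 against 1129 and 1258 (-0.71, adjusted p = 0.122, limma). Fn1 overlapped, at 19162 and 27545 against 22941 and 20200.2. Control 2 held the highest value for Fras1, Tnc and Fn1, and it is also the library with the highest sum of heart muscle markers, whose part in these values was not tested. Npnt, the gene of nephronectin, was at 3870.4 and 4368 against 3591 and 3587 (-0.20, adjusted p = 0.341, limma).

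Dystroglycan binds laminin and perlecan outside the cell and dystrophin or utrophin inside. Dag1 (ENSMUSG00000039952, chromosome 9, 108204634 to 108263958, minus strand) measured 7694 and 8745 normalized counts in control and 5332 and 5172 in Yap CKO. Both Yap CKO values lay below both controls. Its mean went from 8219.5 ± 743 to 5252 ± 113 (SD, n = 2), a log2 change of -0.64 ± 0.10 SE with an adjusted p of 0.0346 in limma. Utrn, the utrophin gene, was at 3276 and 3242 against 3141 and 3460.1 (0.017, adjusted p = 0.946, limma). Dst, a plakin that links hemidesmosomes to keratin filaments, did not pass (0.24, adjusted p = 0.423, limma).

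Of the 9 integrin alpha subunits 1 fell, 1 rose and 7 did not pass, where 1.15% of all genes tested fell and 1.19% rose. Itga3 (ENSMUSG00000001507, chromosome 11, 95044474 to 95076801, minus strand), whose product binds laminins that carry the Lama5 or Lama3 chain, measured 1998 and 1699 in control and 1164 and 1183 in Yap CKO. The Yap CKO libraries nearly coincided, below both controls. The log2 change of Itga3 was -0.65 ± 0.11 SE (adjusted p = 0.04, limma). Its call ended under equal totals. Itga6, the other main laminin-binding subunit of epithelia, overlapped between groups, at 3539 and 5024 against 3764 and 4204 (-0.08, adjusted p = 0.831, limma). The laminin receptor subunit of muscle, Itga7, was among the least expressed genes (33 and 59.6 against 60.6 and 58.7).

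The subunits Itga1 and Itga2 both bind collagens as partners of Itgb1, and their genes are neighbours on chromosome 13, both on the minus strand with 20995 bases between them. Itga2 (ENSMUSG00000015533, 114833081 to 114932100) measured 1108 and 1144 in control and 1743 and 1733 in Yap CKO. Replicates of Itga2 lay close together and the groups well apart. The log2 change was 0.63 ± 0.09 SE (adjusted p = 0.026, limma). Itga1 (ENSMUSG00000042284, 114953096 to 115101964) measured 2623 and 2497 against 1708 and 2081, without passing (-0.44, adjusted p = 0.119, limma). The ratio of Itga2 to Itga1 counts, a pair chosen after its values were seen, was 0.422 and 0.458 in control and 1.02 and 0.833 in Yap CKO. The exact permutation test of this ratio gave a two-sided p of 0.333, the smallest possible with 2 against 2.

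The remaining alpha subunits did not pass either. Itga5, the main fibronectin receptor subunit, stood at 2651 and 2698 in control and 2283 and 2046 in Yap CKO (-0.31, adjusted p = 0.161, limma). Itga9, which binds tenascin C, stood at 3299.6 and 3481 against 2274 and 2683 (-0.46, adjusted p = 0.0963, limma). Itgav, which pairs with several beta subunits, stood at 1992 and 2332 against 1566 and 1735 (-0.39, adjusted p = 0.146, limma). Itga4, a receptor subunit for fibronectin and a vascular adhesion molecule, was at 1550.5 and 1030.2 against 933 and 946 (-0.43, adjusted p = 0.285, limma). All 4 genes were separated between groups with the controls higher, as were 25.6% of all genes tested.

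None of the 6 integrin beta subunits passed in limma, 2 had an unadjusted p under 0.05, and none passed with edgeR or DESeq2. Those with the smaller p were Itgb6 and Itgb8, which pair with Itgav and can release active TGF-beta from its latent complex. Itgb6 stood at 139.5 and 100.6 in control and 37.5 and 73.6 in Yap CKO (-1.16, adjusted p = 0.161, limma). Itgb8 stood at 409 and 537 against 302 and 362 (-0.50, adjusted p = 0.197, limma). Both were separated between groups with the controls higher, as were 25.6% of all genes tested. Itgb6 rests on few counts and its Yap CKO libraries differed nearly 2-fold. Itgb1 overlapped, at 15009 and 15631 against 14226 and 16101, with a 95% confidence interval of the log2 difference from -0.28 to 0.24. Itgb5 and Itgb4 overlapped as well (0.058 and 0.17), and Itgb3 was separated at 433 and 315 against 240.4 and 297 (-0.46, adjusted p = 0.274, limma).

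**Figure D3:**
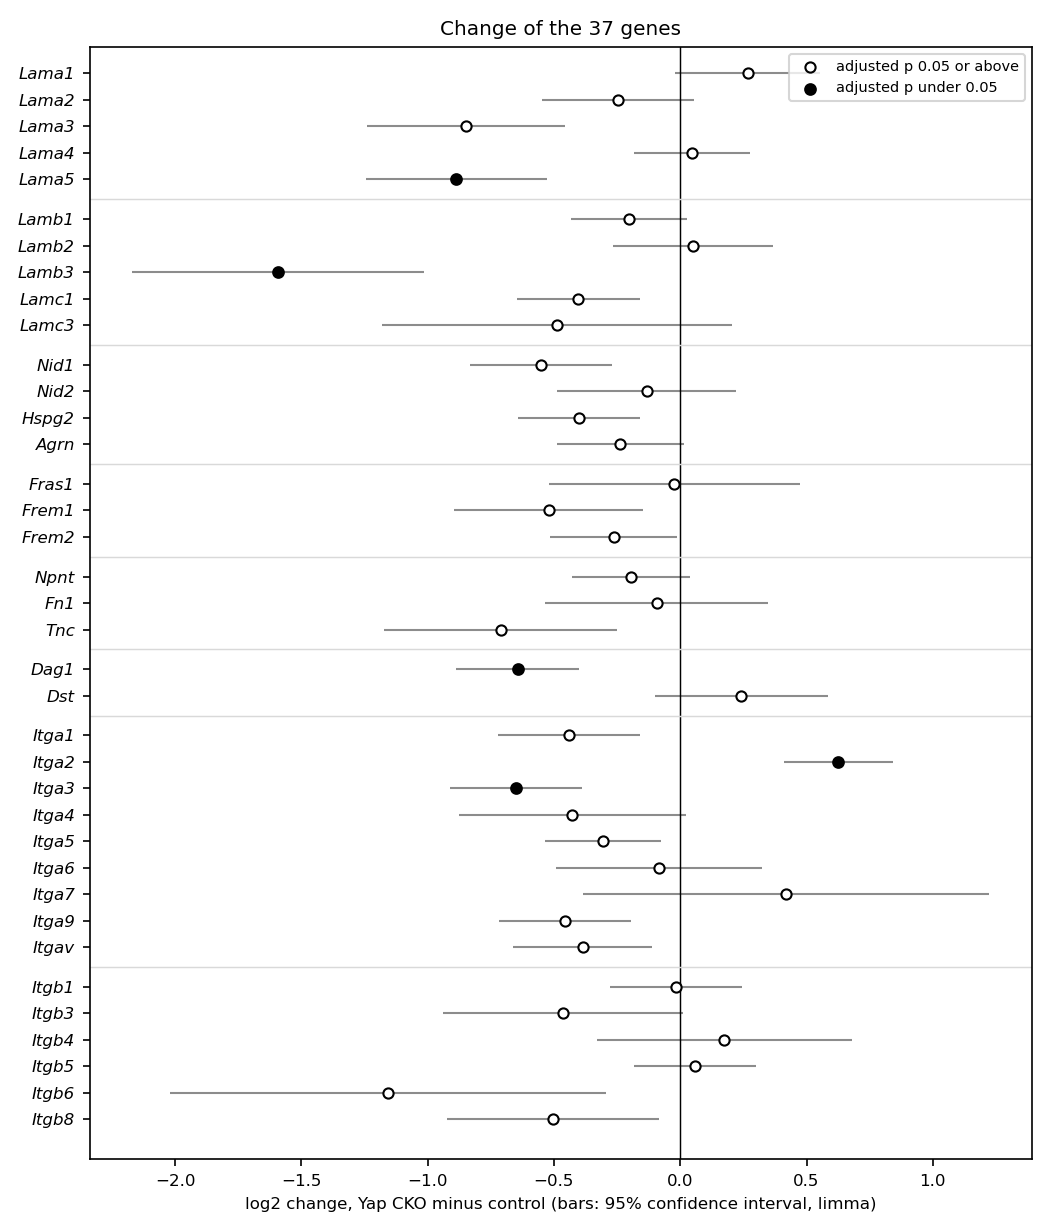
Difference in log2 level between groups (horizontal axis, Yap CKO less control) for each of the 37 genes in role order, with the 95% confidence interval from limma as a bar and filled points at an adjusted p under 0.05. Filled points are Lama5, Lamb3, Dag1 and Itga3 on the lower side and Itga2, at 0.63, on the higher side.

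Other genes of the basement membrane and of adhesion were taken from 7 lists of 88 genes in all. Of the 87 tested 6 fell, 2 rose and 79 did not pass, so 9.2% passed against 2.33% of all genes. The lists were chosen with earlier results of these data known, so this difference in shares is not an independent result. The median log2 difference was -0.16. As with the 37 genes, none passed without either Yap CKO library in limma, where 23 (without Yap CKO 1) and 20 (without Yap CKO 2) had an unadjusted p under 0.05. All genes had 1705 and 1716 of 19472 at that level. Without control 1 there were 30 calls and without control 2 there were 29, against 2459 and 2458 over all genes.

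Among 10 basement membrane collagens 2 fell and 8 did not pass, where 1.15% of all genes tested fell. The fallen genes are the neighbours Col4a5 and Col4a6 of the X chromosome, chains of collagen IV. Col4a5 went from 2286 and 2383 in control to 1559 and 1462 in Yap CKO (-0.63 ± 0.09 SE, adjusted p = 0.0273, limma), and Col4a6 from 1150.3 and 1137 to 722 and 654 (-0.73 ± 0.10 SE, adjusted p = 0.0249, limma). Control 1, the library with high Ddx3y, lay beside control 2 for both. The other collagen IV pairs did not pass, at -0.44 and -0.40 for Col4a1 and Col4a2 and at -1.25 and -1.26 for Col4a3 and Col4a4. All 4 were separated between groups with the controls higher, as were 25.6% of all genes tested.

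Of 15 other basement membrane proteins and builders 3 fell and 12 did not pass. These were Smoc2, a calcium-binding matrix protein (2364 and 2402 to 1027 and 834, -1.36 ± 0.12 SE, adjusted p = 0.00757, limma), Tinagl1 (377 and 357 to 202 and 208) and hemicentin, Hmcn1 (1919.7 and 2045 to 1263 and 1351). Among 12 other matrix receptors 1 fell and 11 did not pass. For both lists the share of all genes tested that fell is 1.15%. Bcam, a surface protein that binds laminins carrying the Lama5 chain, fell from 4135 and 4161 to 1882 and 1957. Its log2 change of -1.11 ± 0.09 SE had an adjusted p of 0.00582 in limma. The replicates of Bcam differed by far less than the groups did.

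The rises were in Fermt1, the kindlin of epithelial cells that activates integrins, and in Adamts1, a secreted protease. Fermt1 went from 101 and 90.0 to 277 and 204 (1.31 ± 0.21 SE, adjusted p = 0.0352, limma), and Adamts1 from 1717 and 1843 to 3199.6 and 2949 (0.79 ± 0.10 SE, adjusted p = 0.0169, limma). The other 18 of the 19 adaptor genes did not pass. Of the 19 differences 16 were negative, with a median of -0.23. On the lower side 13 genes were separated and on the higher side 2, against 25.6% and 25.2% of all genes tested. At an unadjusted p under 0.05 in limma 6 were lower and 2 higher, against 9.52% and 9.34% of all genes. Among the 6 lower ones Zyx, the gene of the focal adhesion protein zyxin, differed by -0.58 (adjusted p = 0.125, limma) and the adaptor gene Bcar1 by -0.42 (adjusted p = 0.0931, limma). Fermt2 and the focal adhesion kinase gene Ptk2 differed by -0.08 each. None of the 9 other integrin subunits tested and none of the 13 genes of the dystroglycan complex passed in limma, with 3 and 2 at an unadjusted p under 0.05. None of them passed with edgeR, and 1 (Itga8) with DESeq2. Itga8, whose product is the receptor for nephronectin, was at 3309 and 2802 in control and 4134 and 4215 in Yap CKO (0.46, adjusted p = 0.0947, limma). The leukocyte subunit gene Itgam differed by -0.83 (adjusted p = 0.266, limma) at low counts, 26.2 and 25.7 in control against 13.5 and 14.9 in Yap CKO. Of its exon bases 68.7% are shared with Gm49368 on the same strand. Dmd, the dystrophin gene, differed by -0.56 (adjusted p = 0.149, limma). Pomgnt1, whose product helps glycosylate dystroglycan, differed by 0.17 (adjusted p = 0.371, limma).

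**Figure D4:**
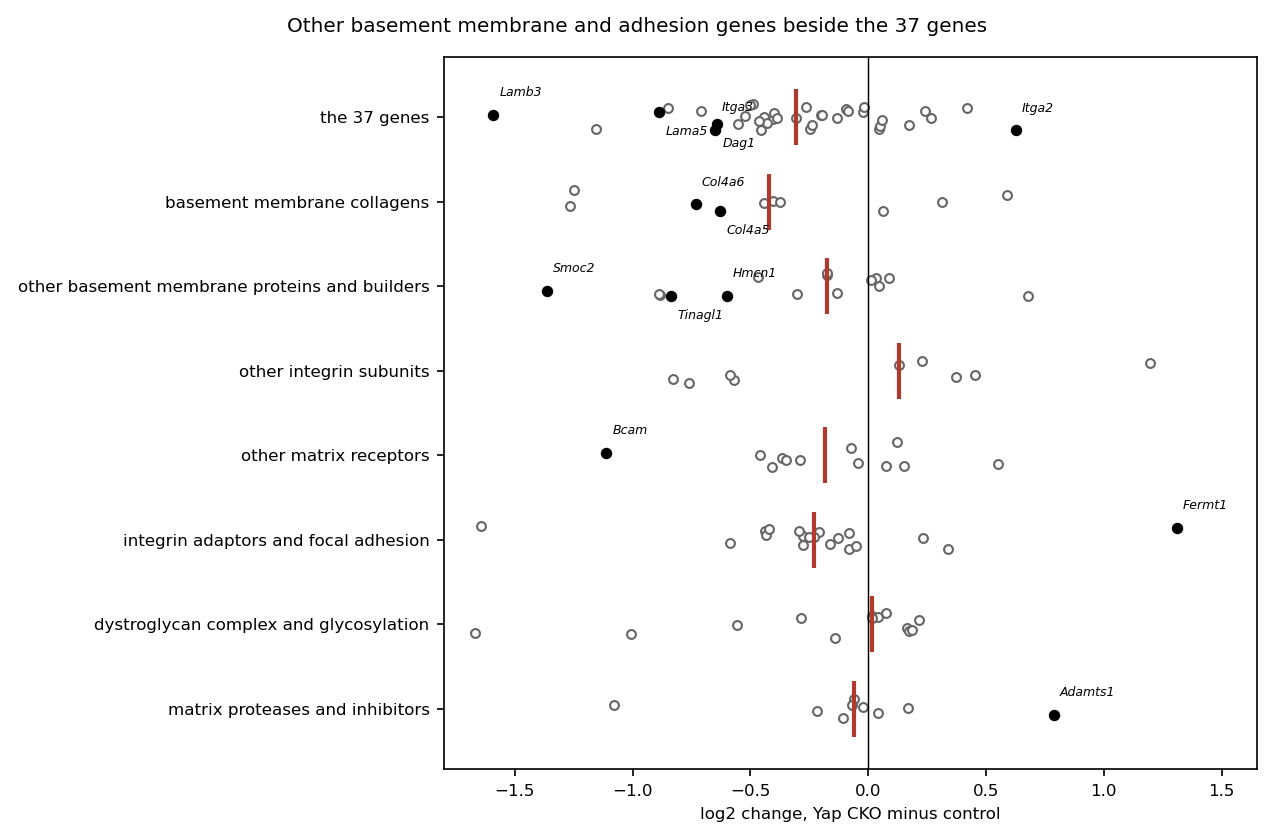
Difference in log2 level between groups (horizontal axis, Yap CKO less control) for the 37 genes and of 7 lists of related genes, 1 point per gene, filled and named at an adjusted p under 0.05, with a red bar at each list's median. The collagens of the basement membrane have a median of -0.42 and the dystroglycan complex and glycosylation genes one of 0.018.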

How the data were processed

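RNA of total lung was extracted with RNeasy columns and libraries followed BGI protocols, per the labels. The submitters' processing notes list, without roles, edgeR 3.18.1, DESeq 1.16.0, featureCounts 1.5.0-p1, Bowtie2 2.2.9 and the mm10 build. Annotation release and strand setting are not stated in the sources used here. The deposited values are a non-negative signal, and by their steps they are gene counts divided by 1 size factor per library (0.8551 to 1.0728). In each library 100% of values were whole multiples of 1 number within 0.001 reads, so reads could be recovered.

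Genes with a mean of at least 10 were fitted with limma 3.58.1 (R 4.3.3, pseudocount 1, intensity trend, two-sided, 2 residual plus 4.54 prior degrees of freedom). The script was tested on simulated data. Replicates differed beyond sampling noise (chi-square per degree of freedom 24.1 in control, 7.18 in Yap CKO). GENCODE M21 gave symbols, positions and lengths for 52403 of 52636 identifiers. Of the 37 genes 14 share exon bases with another gene, at most 8.4% of their length. Members and lists were chosen with earlier results of these data known. Values are given for members that passed or had an unadjusted p under 0.05, the highest of each role, related genes that passed and, in lists without any, the 4 smallest p, of which 1 is not reported here. Further genes were chosen after their values were seen. Alternatives were pseudocounts 0.5 and 5, no filter or one at 50.0, other scalings, no trend, edgeR 4.0.16 and DESeq2 1.42.0 on recovered reads, a replicate block, and leaving out each library.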

Additional observations from a re-analysis of the deposited data

How the results depend on the processing

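Calls among the 37 genes, 5 as reported, were 3 under equal totals (Lamb3, Dag1 and Itga2), 0 without the filter (18 at an unadjusted p under 0.05 in limma), 0 without the intensity trend (13), 13 with DESeq2, and 0 to 18 when 1 library was left out. Calls among the related genes, 8 as reported, were 2 without the filter, 0 without the trend (29 at an unadjusted p under 0.05 in limma), 21 with DESeq2, and 0 to 30 with 1 library left out. Calls over all genes, 454 as reported, were 56, 6, 1037 and 2 to 2459 in the same order. The cause of these shifts was not tested. Rises were 50.9% of all calls as deposited and 61.9% under equal totals. With 1 library left out its group has 1 library, which is assumed to vary like the other group. With the replicate number as a block, which the labels do not tie to a shared litter or day, calls were 4 among the 37 genes (Itga3 lost), 7 among the related genes and 342 over all genes. Deviations of like-numbered libraries correlated at -0.36 over genes, and a replicate block with crossed numbers, added after seeing the data, gave 10, 15 and 972 calls. The Lama5 share of the alpha chains differed by -14.8 to -9.82 percentage points with 1 library left out. The Lamc3 share of the gamma chains, -0.06 points as computed, ran from -0.26 to 0.14. Precision is limited by 2 libraries per group, and for Itgb6, Itgb4 and Itga7 also by low counts.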

Other observations

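Ilk, the gene of integrin-linked kinase, was listed at only 18.3 to 31.6 normalized counts in the 4 libraries, while its binding partners Parva and Lims1 stood between 3950 and 5187. Other annotated genes on the opposite strand, Taf10 and Rrp8, cover 89.7% of the exon bases of Ilk. The handling of reads in shared exons during counting is not stated in the sources used here.

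Some genes of the adhesion lists with low counts, chosen after their values were seen, are given as values. Sgcd, a sarcoglycan of muscle, was at 46.5 and 78.3 in control and 16.3 and 20.5 in Yap CKO, and Lims2 was at 52.3 and 86.5 against 17.3 and 25.2, with neither past the limma test. Sgca, a sarcoglycan of striated muscle, overlapped, at 1.94 and 44.4 in controls 1 and 2 against 10.6 and 1.86 in Yap CKO. Its highest value was in control 2 and its next in Yap CKO 1, as for the sum of heart muscle markers. Among integrin subunits of leukocytes Itgal was at 90.1 and 97.1 in control and 62.5 and 61.5 in Yap CKO, and Itgae at 27.1 and 37.4 against 85.6 and 64.3. Neither passed (adjusted p = 0.211 and 0.103, limma).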
